A study of Mus musculus with 18 samples.

Results

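The 46 genes described here encode the core autophagy machinery of the mouse, from the kinase complex that starts an autophagosome to the proteins that fuse it with a lysosome. They were chosen by name, with earlier results of these data known, by a rule that itself uses no measured value, and matched to 46 of the 55487 Ensembl genes counted in each library. Libraries came from WEHI-231 cells, a murine immature B cell lymphoma line, and from the clones #A-59 and #B-20 of that line in which Tfeb had been targeted with Cas9. Parental cells and both clones were each left untreated (0 h) or stimulated through the B cell receptor (BCR) with 10 µg/ml anti-IgM F(ab')2 for 6 or 18 h, which gave 9 groups of 2 libraries, 18 in all. The 2 libraries of a group stem from independent experiments. The p-values rest on a spread between replicate libraries that was estimated over all 9 groups together, not on the groups compared alone. Each mutant genotype is 1 clone, grown up after electroporation with crRNA, tracrRNA and Cas9 protein, and no TFEB-intact clone was analysed here, so that loss of TFEB and clonal differences cannot be told apart.

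Autophagy delivers cytoplasm and organelles to lysosomes inside a double-membrane vesicle, the autophagosome. A kinase complex around Ulk1 and Ulk2 starts the process, a phosphatidylinositol 3-kinase complex marks the membrane, and lipid transport proteins expand it. A pair of ubiquitin-like conjugation systems then attaches proteins of the LC3 and Gabarap families to the membrane, where they bind cargo receptors, before SNARE proteins fuse the finished vesicle with a lysosome. TFEB is a transcription factor of the MiT/TFE family that is known to activate genes of lysosomes and autophagy through E-box motifs.

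The libraries held 11223588 to 29655262 counts. Tfeb, the targeted gene, stood at 79.2 and 82.8 CPM (counts per 1000000 counts, with library sizes scaled by TMM) in untreated parental cells, at 25.9 and 25.5 CPM in #A-59 and at 34.2 and 39.1 CPM in #B-20. Its log2 difference from untreated parental cells was -1.65 (SE 0.11, adjusted p = 2.44e-09) in #A-59 and -1.14 (SE 0.11, adjusted p = 3.81e-07) in #B-20. The transcript was thus lower in both clones but not absent, and counts per gene do not show whether protein is made from it. The summed level of 8 B cell markers lay between 6053 and 12590 CPM, and that of 4 T cell markers between 0.0492 and 0.622 CPM. Of the myeloid markers Itgam reached 26.3 CPM, while Csf1r reached at most 2.16 CPM, Lyz2 0.0653 CPM and Cd14 0.0519 CPM. Exons of Gm49368 overlap 67.4% of the exonic length of Itgam. Among those of fibroblasts and epithelium Epcam stood at 9.81 to 41.0 CPM. The others of that list reached at most 0.675 CPM (Col1a1), 0.148 CPM (Pdgfra) and 0 CPM (Dcn). The part of either cell type in the results was not tested. These are bulk data, so that a change in every cell cannot be told apart from a larger one in some of the cells, nor fewer cells of a type from less RNA per cell.

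Of the 46 genes, 44 passed the filter on low counts, and each of these had at least 21 counts in every library. Over 15201 genes with known GC content, log2 fold changes followed GC content in #A-59 at 6 h against 0 h (Spearman's rho 0.23) and in #B-20 at 18 h against 0 h (0.228), beside -0.0143 to 0.0467 in the other responses against 0 h. The difference between replicates of #A-59 did so at 0 h (0.467) and 6 h (0.512), beside -0.193 to 0.0813 in the other groups. Wipi1, which binds phosphatidylinositol 3-phosphate on forming autophagosomes, reached at most 23 counts in a library. Gabarapl1, a member of the Gabarap family, had 0 counts in all 18 libraries. Per kilobase of transcript, the highest levels in untreated parental cells were those of Gabarap (66.7 CPM per kb), the receptor Sqstm1 (48.5), Rubcn (46.5), an inhibitor of the phosphatidylinositol 3-kinase complex, and the SNARE protein Snap29 (34.0). Among the tested genes Atg10, an E2-like enzyme, was lowest with 0.505 CPM per kb, below the protease gene Atg4c (1.15) and the membrane expansion gene Wdr45 (1.76). The libraries carry no strand information, and 32 of the 46 genes share exonic sequence with another gene. This share exceeded 10% of the exonic length in 9 of them, among these Becn1 (43.8%), Atg9a (37.8%), Atg4d (37.1%), Atg13 (33.1%) and Sqstm1 (18.9%), where reads of both genes cannot be told apart. In Calcoco1 and Nbr1 it was 0%.

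RefSeq promoters of GRCm38.p6, from 250 bases before to 50 bases after each annotated start, were matched to 38 of the 46 genes. The E-box letters CACGTG, a palindrome, occurred in 5 of these 38 genes (13.2%) and in 8.09% of all 27025 genes with a promoter in the same table. TCACGTG, read on both strands and always containing the first motif, occurred in 4 of the 38 (10.5%) and in 4.29% of all genes. The 5 windows are shown because these letters are the core of known TFEB sites, with 20 flanking bases and the motif in capitals (TCACGTG or its reverse complement where the longer motif was present).
Atg14, chr14:47568410-47568455, minus strand: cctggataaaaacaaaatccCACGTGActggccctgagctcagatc
Atg3, chr16:45158715-45158783, plus strand: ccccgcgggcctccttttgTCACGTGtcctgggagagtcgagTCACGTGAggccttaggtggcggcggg
Atg5, chr10:44268305-44268350, plus strand: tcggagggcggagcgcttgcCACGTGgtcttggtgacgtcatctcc
Atg7, chr6:114670944-114670989, plus strand: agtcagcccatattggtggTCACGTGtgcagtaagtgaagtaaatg
Rubcn, chr16:32868429-32868474, minus strand: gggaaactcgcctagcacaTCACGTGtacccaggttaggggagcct
The first base of CACGTG lay 1 base before the start in Atg14, 14 bases in Atg5, 88 bases in Rubcn and 132 bases in Atg7, and the matches in Atg3 lay 94 and 71 bases before its start. A match describes these letters in this window and is no evidence of binding.

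At 6 h of anti-IgM few genes of the machinery were called against untreated cells. A gene is said to have risen or fallen where edgeR's quasi-likelihood test, adjusted by the Benjamini-Hochberg method over all 15318 genes tested, gave an adjusted p under 0.01. In parental cells 2 of 44 fell (4.55%) and none rose, while 7.34% of all genes tested were called and 4.24% were lower. These were the receptor gene Optn, with a log2 fold change of -0.68 (SE 0.08, adjusted p = 4.89e-06), and the SNARE gene Snap29, with -0.56 (SE 0.09, adjusted p = 0.000195). Alternatives also called rises in parental cells. Under a correction for GC content these were Sqstm1 (0.29) and Vmp1 (0.35). With only the libraries compared they were Sqstm1 (0.27), Vmp1 (0.34) and Nbr1 (0.25), beside further falls of Atg16l1 (-0.29), Atg16l2 (-0.29) and Rubcn (-0.34). In #A-59, Uvrag, a subunit of the phosphatidylinositol 3-kinase complex on endosomes and late autophagosomes, fell by 0.41 (SE 0.07, adjusted p = 0.0011) on the log2 scale, as 1 of 44 members called, beside 6.14% of all genes called and 3.69% lower. This call was lost without replicate 2 of untreated #A-59 cells, at a log2 fold change of -0.42. Without replicate 2 of #A-59 at 6 h, 6 members were called, and without replicate 1 of that group 2. DESeq2 called Sqstm1 (0.33) and Calcoco1 (0.58) as higher in #A-59, beside Uvrag as lower (-0.41). In #B-20 edgeR called none, with 5 at an unadjusted p under 0.05, and 1.29% of all genes were called. In #B-20 DESeq2 called Optn and Snap29 as lower, as did edgeR under a correction for GC content (-0.35 and -0.42). The 2 libraries of #B-20 at 6 h differed most of all groups, with a chi-squared of 58.25 per degree of freedom against counting noise. This value was 33.32 in #A-59 and 3.586 in parental cells at 6 h, and its part in the number of calls was not tested. The median log2 fold change of the 44 genes in parental cells was 0.02, beside 0.008 over all genes tested.

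Optn, an adaptor that links ubiquitinated cargo to LC3, was lowest at 6 h in parental cells and #B-20, where no libraries of that time overlapped with another. In parental cells it stood at 77.3 and 76.8 CPM before stimulation, 46.5 and 49.9 CPM after 6 h and then 73.3 and 75.3 CPM after 18 h. #A-59 cells held 103 and 101 CPM before stimulation, 88.9 and 90.7 CPM after 6 h and then 92.3 and 89.4 CPM after 18 h, and #B-20 cells held 101 and 104 CPM before stimulation, 81.5 and 82.7 CPM after 6 h and then 95.9 and 99.2 CPM after 18 h. In #A-59 the libraries at 6 and 18 h overlapped. The rise from 6 to 18 h in parental cells had a log2 fold change of 0.62 (SE 0.08, adjusted p = 1.88e-06). At 18 h against 0 h no genotype showed a call for Optn, where its log2 values were -0.05 (parental), -0.16 (#A-59) and -0.07 (#B-20).

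At 18 h many more members were called, nearly all of them as higher and with log2 fold changes below 1. In parental cells 17 of 44 genes rose (38.6%) and 2 fell, beside 16.4% of all genes that rose and 16.2% that fell. The median log2 fold change of the 44 was 0.32 against 0.04 over all genes tested, and 35 of 44 had a value above 0. In #A-59, 18 rose and none fell, where 14.7% of all genes rose and 17.1% fell, with medians of 0.32 and 0.02. In #B-20, 11 rose and 2 fell, with 11.4% of all genes in each direction and medians of 0.17 and 0.03. Leaving out replicate 2 of untreated #B-20 cells reduced the 13 calls of that clone to 8. With the study's additional limit of an absolute log2 fold change above 1, which defines a differentially expressed gene (DEG), only Calcoco1 and Tecpr1 in parental cells, Calcoco1 in #A-59, and Calcoco1 and Wdr45 in #B-20 passed, while 10.3%, 8.76% and 4.8% of all genes did.

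**Figure D1:**
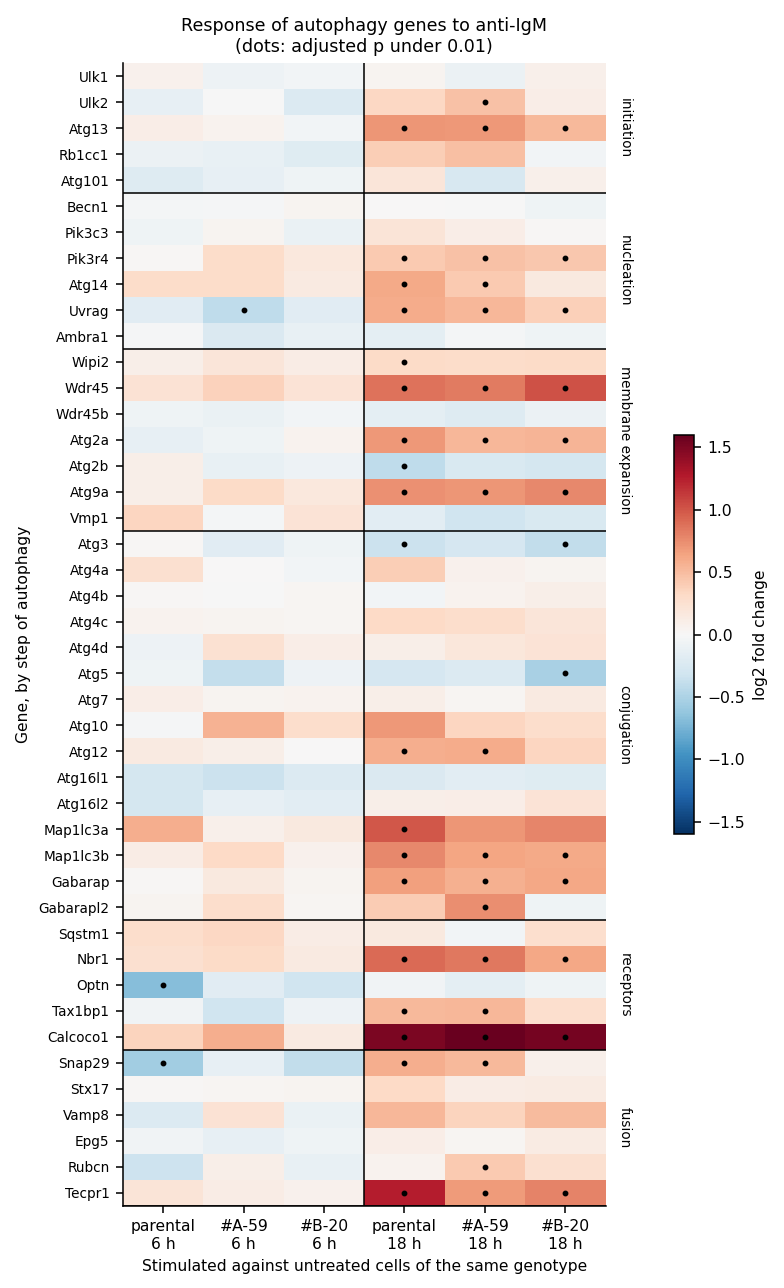
Colours give the log2 fold change of 44 autophagy genes (rows, grouped by step) after 6 or 18 h of anti-IgM against untreated cells of the same genotype (columns), and dots mark an adjusted p under 0.01. The 6 h columns hold 3 dots, the 18 h columns 17 rises and 2 falls in parental cells, 18 rises in #A-59, and 11 rises and 2 falls in #B-20.

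Among the 5 initiation genes, 2 rose at 18 h in #A-59 and 1 each in parental cells and #B-20. The gene called in every genotype was Atg13 (ENSMUSG00000027244, chr2:91674612-91710597 in GRCm38), the scaffold that holds the Ulk kinases in their complex. Parental cells held 34.3 and 33.8 CPM before stimulation, 37.0 and 36.3 CPM after 6 h and then 53.0 and 57.6 CPM after 18 h. In #A-59 the values were 34.5 and 35.6 CPM before stimulation, 34.5 and 38.6 CPM after 6 h and then 59.1 and 54.1 CPM after 18 h, and in #B-20 they were 30.9 and 29.8 CPM before stimulation, 29.4 and 29.5 CPM after 6 h and then 44.3 and 43.0 CPM after 18 h. All 18 h libraries lay above the 0 and 6 h libraries of their genotype, and the #B-20 libraries lay below those of the other genotypes at each time. The log2 fold changes at 18 h were 0.70 (SE 0.09, adjusted p = 4.37e-06), 0.69 (SE 0.09, adjusted p = 5.39e-06) and 0.52 (SE 0.09, adjusted p = 0.000204). The kinase gene Ulk2 rose in #A-59 alone (0.47, adjusted p = 0.00156), a call lost without replicate 1 at 0 h (0.42) or at 18 h (0.35), and in parental cells it had 0.33 (adjusted p = 0.0153). Ulk1, the other kinase of the complex, ranged from -0.10 to 0.08 over the genotypes. Rb1cc1, which encodes the large scaffold FIP200, had log2 values of 0.40 (parental), 0.49 (#A-59) and -0.05 (#B-20), with no call. Atg101, a further subunit of the complex, had 0.20, -0.26 and 0.08 in the same order, also without a call.

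Of the 6 nucleation genes, 3 each rose in parental cells and #A-59 and 2 rose in #B-20. Uvrag (ENSMUSG00000035354, chr7:98886742-99141167) had 109 and 113 CPM before stimulation, 98.5 and 98.7 CPM after 6 h and then 171 and 165 CPM after 18 h in parental cells. The clone #A-59 showed 174 and 172 CPM before stimulation, 128 and 134 CPM after 6 h and then 253 and 246 CPM after 18 h, and #B-20 showed 151 and 156 CPM before stimulation, 134 and 135 CPM after 6 h and then 199 and 201 CPM after 18 h. In every genotype the lowest pair of libraries was that at 6 h and the highest that at 18 h, with no overlap between times. At 18 h against 0 h the log2 fold changes were 0.59 (SE 0.07, adjusted p = 2.88e-06), 0.53 (SE 0.07, adjusted p = 1.08e-05) and 0.38 (SE 0.07, adjusted p = 0.000468). Without replicate 1 of untreated #B-20 cells the value in this clone was 0.33 and was not called.

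Atg14 (ENSMUSG00000037526, chr14:47540893-47568434), the subunit that directs the kinase complex to autophagosome formation, was one of the genes with CACGTG in its promoter window. Its levels in parental cells were 16.2 and 16.3 CPM before stimulation, 20.5 and 19.4 CPM after 6 h and then 25.3 and 24.3 CPM after 18 h. They were 19.7 and 19.1 CPM before stimulation, 24.3 and 23.2 CPM after 6 h and then 28.7 and 23.1 CPM after 18 h in #A-59 and 17.9 and 16.3 CPM before stimulation, 20.3 and 17.4 CPM after 6 h and then 19.5 and 18.5 CPM after 18 h in #B-20. The 3 parental groups did not overlap, whereas in #A-59 the lower 18 h library lay below both 6 h libraries and in #B-20 the 6 h libraries enclosed those at 18 h. Atg14 rose at 18 h in parental cells by 0.61 (SE 0.12, adjusted p = 0.000385) and in #A-59 by 0.42 (SE 0.12, adjusted p = 0.00667). The latter call was lost without either untreated library of #A-59 (0.44 and 0.39) or without replicate 1 at 18 h (0.23). In #B-20 the value was 0.15 (SE 0.12, adjusted p = 0.35). Pik3r4, the regulatory subunit Vps15, rose in all 3 genotypes by 0.42, 0.47 and 0.43, and its parental call was lost when any of the 4 libraries compared was left out, where the value was between 0.37 and 0.41. The #A-59 call was lost without replicate 2 at 0 h or replicate 1 at 18 h (0.37 to 0.56 over the 4 libraries), and the #B-20 call without any library other than replicate 2 at 18 h (0.37 to 0.45). Becn1, the scaffold of the complex, had 0.01, -0.01 and -0.07, each with an SE of 0.08. Pik3c3, the catalytic subunit Vps34, had 0.21, 0.10 and 0.02, and Ambra1, a regulator of Becn1, had -0.16, -0.03 and -0.07, without a call.

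Of the 7 tested genes of membrane expansion, 4 rose and 1 fell in parental cells, and 3 rose in each clone. Wdr45 (ENSMUSG00000039382, chrX:7721987-7728201), also called Wipi4, binds phosphatidylinositol 3-phosphate and the lipid transfer proteins of the Atg2 family. Parental cells contained 8.86 and 9.06 CPM before stimulation, 10.9 and 10.1 CPM after 6 h and then 16.1 and 16.5 CPM after 18 h. For #A-59 the levels were 10.2 and 9.53 CPM before stimulation, 13.7 and 11.6 CPM after 6 h and then 17.5 and 17.7 CPM after 18 h, and for #B-20 6.96 and 8.25 CPM before stimulation, 7.97 and 9.80 CPM after 6 h and then 16.5 and 14.4 CPM after 18 h. The 18 h libraries lay above all others of their genotype, while at 0 and 6 h the #B-20 libraries overlapped. The log2 fold changes at 18 h were 0.86 (SE 0.14, adjusted p = 5.16e-05), 0.83 (SE 0.13, adjusted p = 6.97e-05) and 1.02 (SE 0.14, adjusted p = 2.72e-05), the last of which made Wdr45 a DEG in #B-20. This value was below the limit for a DEG under the GC correction and without replicate 1 at 0 h or 18 h (0.88 at the lowest). Exons of Gm45208 overlap 11.8% of the exonic length of Wdr45.

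Atg9a (ENSMUSG00000033124, chr1:75180861-75192010), a lipid scramblase on the vesicles that seed the membrane, had 26.3 and 26.3 CPM before stimulation, 27.0 and 29.3 CPM after 6 h and then 41.6 and 45.6 CPM after 18 h in parental cells. In #A-59 it stood at 34.0 and 26.3 CPM before stimulation, 42.6 and 32.0 CPM after 6 h and then 50.9 and 47.7 CPM after 18 h, and in #B-20 at 28.6 and 24.8 CPM before stimulation, 31.0 and 28.8 CPM after 6 h and then 48.7 and 42.2 CPM after 18 h. Replicate 1 was the higher library in every #A-59 group, and the untreated and 6 h groups of this clone overlapped. Atg9a rose at 18 h by 0.73 (SE 0.14, adjusted p = 0.000276) in parental cells, by 0.70 (SE 0.14, adjusted p = 0.000362) in #A-59 and by 0.77 (SE 0.14, adjusted p = 0.000309) in #B-20. The #A-59 call was lost without replicate 2 of its untreated cells (0.53), and the #B-20 call without replicate 2 of its untreated cells (0.67). Its partner in lipid transfer, Atg2a, rose by 0.69, 0.53 and 0.55, where the #A-59 call was lost without replicate 2 at 0 h or replicate 1 at 18 h (0.46 to 0.61 over the 4 libraries). The #B-20 call was lost under a correction for GC content, at 0.28, and without any library other than replicate 2 at 18 h, at 0.49 to 0.58. In contrast the paralog Atg2b fell in parental cells by 0.41 (SE 0.08, adjusted p = 0.000522), from 155 and 156 CPM to 117 and 117 CPM. In the clones Atg2b had -0.24 and -0.28, with adjusted p-values of 0.0245 and 0.0135. Wipi2, which recruits Atg16l1, rose in parental cells by 0.30 (SE 0.09, adjusted p = 0.00948) and had 0.29 and 0.31 in the clones. Its parental call was lost when any of the 4 libraries compared was left out, with a value of 0.27 in each case. Wdr45b, a paralog of Wdr45, and the scramblase gene Vmp1 were not called at 18 h against 0 h, with -0.16 and -0.17 in parental cells.

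Within the conjugation systems, 15 genes were tested, and those that rose at 18 h against 0 h in at least 1 genotype were Map1lc3a, Map1lc3b, Gabarap, Gabarapl2 and Atg12. Parental cells showed 4 rises and 1 fall, #A-59 4 rises, and #B-20 2 rises and 2 falls. Map1lc3b (ENSMUSG00000031812, chr8:121590438-121598760), which encodes LC3B, the most used marker of autophagosomes, stood at 40.5 and 35.6 CPM before stimulation, 41.0 and 41.7 CPM after 6 h and then 60.7 and 69.0 CPM after 18 h in parental cells. #A-59 had 46.1 and 42.8 CPM before stimulation, 56.2 and 54.4 CPM after 6 h and then 71.3 and 66.2 CPM after 18 h, and #B-20 had 33.9 and 32.5 CPM before stimulation, 34.4 and 35.3 CPM after 6 h and then 52.0 and 49.3 CPM after 18 h. The 18 h libraries exceeded all others of their genotype without overlap. The log2 fold changes at 18 h were 0.77 (SE 0.09, adjusted p = 2.45e-06), 0.63 (SE 0.09, adjusted p = 2.34e-05) and 0.61 (SE 0.09, adjusted p = 8.06e-05). Gabarap, which acts beside LC3 in fusion and receptor binding, went from 114 and 121 CPM to 187 and 185 CPM in parental cells, a log2 fold change of 0.66 (SE 0.10, adjusted p = 1.84e-05). Its rises in the clones were 0.57 in #A-59 and 0.62 in #B-20.

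Map1lc3a (ENSMUSG00000027602, chr2:155276364-155278073), which encodes LC3A, was among the weakly expressed members. Its parental levels were 3.18 and 4.34 CPM before stimulation, 5.59 and 5.61 CPM after 6 h and then 5.71 and 8.92 CPM after 18 h, and the libraries at 18 h differed more from each other than those at 6 h. The levels were 4.40 and 3.62 CPM before stimulation, 4.51 and 3.99 CPM after 6 h and then 7.07 and 6.15 CPM after 18 h in #A-59 and 2.81 and 3.78 CPM before stimulation, 3.25 and 4.18 CPM after 6 h and then 5.47 and 5.89 CPM after 18 h in #B-20. Map1lc3a rose at 18 h in parental cells by 0.995 (SE 0.22, adjusted p = 0.00117). Without replicate 1 of untreated parental cells the value was 0.75, and without replicate 2 at 18 h it was 0.58, in both cases without a call. In the clones it had 0.71 (adjusted p = 0.0131) and 0.78 (adjusted p = 0.0137). Gabarapl2 was called in #A-59 alone, with 0.75 (SE 0.20, adjusted p = 0.00583), and this was lost when any of the 4 libraries compared was left out (0.61 to 0.87).

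Of the conjugation enzymes, Atg3, the E2-like enzyme that transfers LC3 to lipid, fell at 18 h in parental cells by 0.34 (SE 0.10, adjusted p = 0.00939) and fell by 0.39 (SE 0.10, adjusted p = 0.00474) in #B-20. In #A-59 it had -0.27 (SE 0.10, adjusted p = 0.0344). Both calls of Atg3 were lost under the GC correction, with a value of -0.38 in parental cells and -0.28 in #B-20. They were also lost without any of 3 of the 4 libraries compared, at -0.37 to -0.28 in parental cells and -0.45 to -0.29 in #B-20. Atg5, which is joined to the ubiquitin-like protein Atg12, fell by 0.52 (SE 0.12, adjusted p = 0.00294) in #B-20, a call lost without replicate 1 at 18 h (-0.39) or replicate 2 at 0 h (-0.47). Parental cells had -0.27 and #A-59 -0.22 for this gene. Atg12 rose in parental cells by 0.58 (SE 0.11, adjusted p = 0.000221) and in #A-59 by 0.59 (SE 0.10, adjusted p = 0.000166), and had 0.34 (SE 0.11, adjusted p = 0.0172) in #B-20. Its #A-59 call was lost without replicate 1 at 18 h (0.44). The E1-like enzyme Atg7, the proteases Atg4a, Atg4b, Atg4c and Atg4d, Atg10, Atg16l1 and Atg16l2 were called in no genotype at 18 h against 0 h and had -0.23 to 0.70 in parental cells. Of the genes whose promoter windows are printed above, Atg3 and Atg5 thus fell in at least 1 genotype, Atg14 and Rubcn (described further on) rose in at least 1, and Atg7 had 0.10, 0.03 and 0.14.

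Of the 5 receptors, 3 each rose at 18 h in parental cells and #A-59 and 2 rose in #B-20. Calcoco1 (ENSMUSG00000023055, chr15:102706777-102722178) had the largest change of all members. It encodes a receptor for selective autophagy of the endoplasmic reticulum and the Golgi apparatus. Parental cells held 28.1 and 40.2 CPM before stimulation, 41.6 and 45.6 CPM after 6 h and then 93.4 and 100.2 CPM after 18 h. The values were 29.6 and 32.6 CPM before stimulation, 45.4 and 47.5 CPM after 6 h and then 92.8 and 92.3 CPM after 18 h in #A-59 and 18.3 and 24.7 CPM before stimulation, 22.1 and 25.9 CPM after 6 h and then 69.0 and 55.2 CPM after 18 h in #B-20. At 18 h all libraries lay above those at 0 and 6 h of their genotype, and the #B-20 libraries were the lowest at each time. The log2 fold changes of 18 h against 0 h were 1.51 (SE 0.15, adjusted p = 3.97e-07), 1.58 (SE 0.15, adjusted p = 3.11e-07) and 1.53 (SE 0.16, adjusted p = 2.07e-06), or 2.84-fold, 2.98-fold and 2.88-fold. Left-out libraries moved the parental value between 1.24 and 1.75 and kept the call.

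Nbr1 (ENSMUSG00000017119, chr11:101552107-101581951), a receptor for ubiquitinated cargo, had 109.6 and 106 CPM before stimulation, 129 and 129 CPM after 6 h and then 197 and 206 CPM after 18 h in parental cells. In #A-59 it showed 113 and 114 CPM before stimulation, 131 and 149 CPM after 6 h and then 211 and 196 CPM after 18 h, and in #B-20 108 and 106 CPM before stimulation, 121 and 115 CPM after 6 h and then 178 and 151 CPM after 18 h. Its groups did not overlap within any genotype, and the order was 0, 6 and 18 h in each. The log2 fold changes at 18 h were 0.90 (SE 0.09, adjusted p = 2.52e-07), 0.84 (SE 0.09, adjusted p = 6.35e-07) and 0.62 (SE 0.09, adjusted p = 4.04e-05). Tax1bp1, a further receptor for ubiquitinated cargo, rose in parental cells by 0.52 and in #A-59 by 0.54, and in #B-20 it had 0.27 (adjusted p = 0.0546). The parental call was lost without replicate 1 at 0 h (0.46) or at 18 h (0.47), and the #A-59 call without replicate 1 at 0 h (0.41) or replicate 2 at 18 h (0.44). Sqstm1, which encodes p62, the best known of these receptors, was not called at 6 or 18 h against 0 h in any genotype. Alternatives to this fit did call Sqstm1 as higher at 6 h. In parental cells these were the GC correction (0.29) and a fit on only the libraries compared (0.27), and in #A-59 DESeq2 (0.33). It stood at 184 and 198 CPM before stimulation, 233 and 231 CPM after 6 h and then 203 and 221 CPM after 18 h in parental cells, at 217 and 195 CPM before stimulation, 270.5 and 246 CPM after 6 h and then 205 and 194 CPM after 18 h in #A-59 and at 143 and 156 CPM before stimulation, 155 and 170.4 CPM after 6 h and then 190.0 and 171 CPM after 18 h in #B-20. With no alternative applied, the only call over time was a fall from 6 to 18 h in #A-59, with -0.37 (SE 0.09, adjusted p = 0.00265). This call was lost without replicate 1 at 6 h (-0.31) or replicate 2 at 18 h (-0.34).

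Of the 6 genes of fusion and maturation, 3 rose in #A-59, 2 in parental cells and 1 in #B-20. Tecpr1 (ENSMUSG00000066621, chr5:144194442-144223615), a protein that binds the Atg12-Atg5 conjugate at lysosomes, rose in every genotype. Parental cells held 15.6 and 18.6 CPM before stimulation, 20.6 and 18.9 CPM after 6 h and then 40.1 and 41.5 CPM after 18 h. The levels were 20.9 and 18.2 CPM before stimulation, 23.3 and 19.2 CPM after 6 h and then 32.4 and 30.5 CPM after 18 h in #A-59 and 13.99 and 14.9 CPM before stimulation, 15.3 and 15.2 CPM after 6 h and then 25.7 and 24.2 CPM after 18 h in #B-20. At 18 h the libraries of the 3 genotypes did not overlap, with parental cells highest and #B-20 lowest. The log2 fold changes were 1.26 (SE 0.12, adjusted p = 1.50e-07), 0.68 (SE 0.12, adjusted p = 0.00013) and 0.79 (SE 0.12, adjusted p = 8.33e-05).

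Snap29 (ENSMUSG00000022765, chr16:17406000-17430826), the SNARE protein that joins Stx17 and Vamp8 in the fusion complex, fell and then rose in parental cells. These cells had 114 and 120.5 CPM before stimulation, 76.0 and 83.5 CPM after 6 h and then 174 and 176 CPM after 18 h. In #A-59 the levels were 162 and 182 CPM before stimulation, 149.9 and 164 CPM after 6 h and then 248 and 246 CPM after 18 h, and in #B-20 they were 164 and 171 CPM before stimulation, 122 and 133 CPM after 6 h and then 171 and 183 CPM after 18 h. The parental groups at the 3 times did not overlap, whereas in #B-20 the 0 and 18 h groups met at the border. At 18 h against 0 h Snap29 rose by 0.58 (SE 0.09, adjusted p = 2.67e-05) in parental cells and 0.52 (SE 0.09, adjusted p = 7.80e-05) in #A-59, and had 0.08 (SE 0.09, adjusted p = 0.494) in #B-20. From 6 to 18 h it rose by 1.14 (parental), 0.66 (#A-59) and 0.47 (#B-20). The #B-20 call of this rise was lost without replicate 1 at 6 h (0.40). Its partners Stx17 and Vamp8 were not called at 18 h against 0 h, with 0.31 and 0.53 in parental cells, and neither was Epg5, a tether of autophagosomes to late endosomes and lysosomes (0.10). Rubcn rose in #A-59 by 0.42 (SE 0.09, adjusted p = 0.00057), which was lost without replicate 2 at 18 h (0.38), and had 0.06 in parental cells and 0.25 in #B-20.

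**Figure D2:**
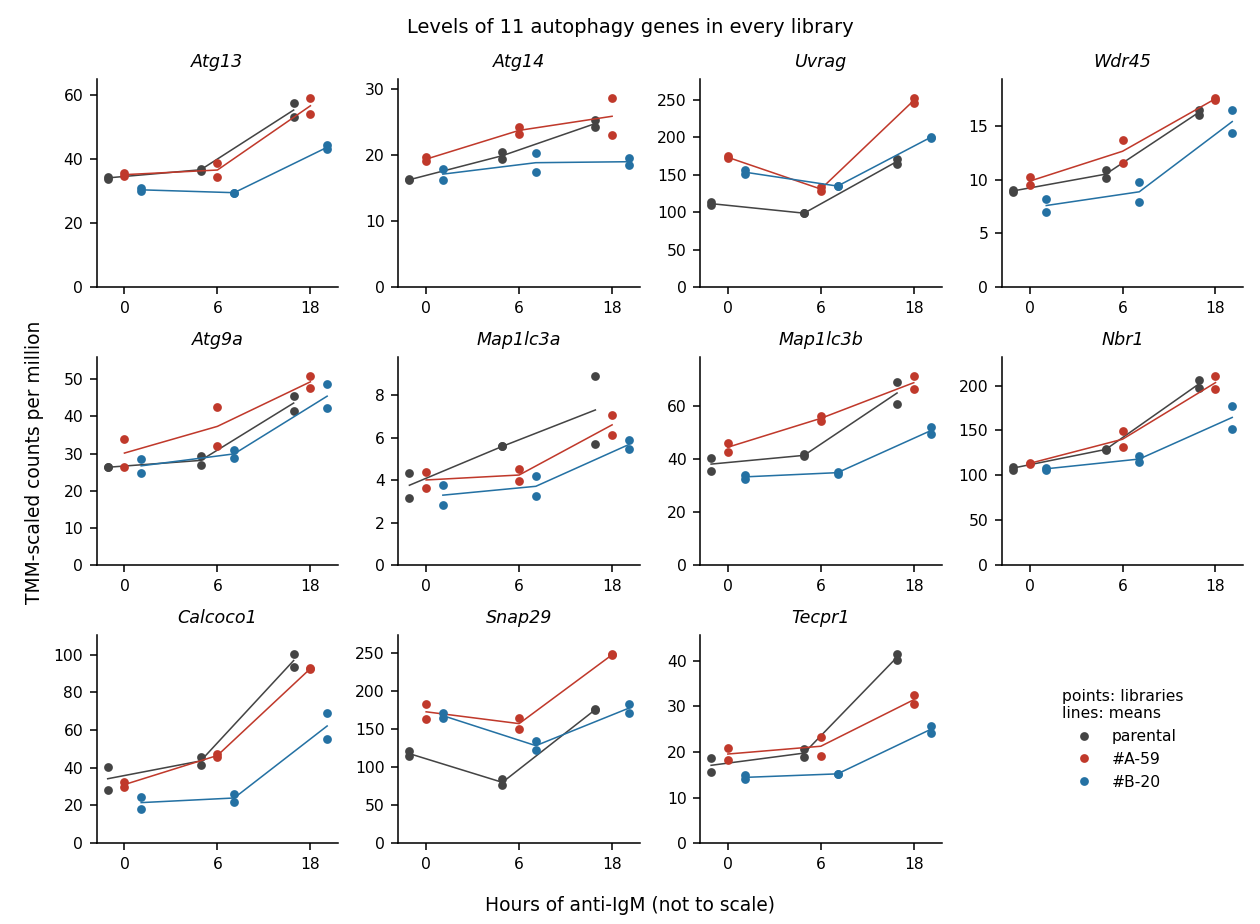
Each panel plots 1 gene in TMM-scaled CPM (vertical axis, from 0) against hours of anti-IgM, with 1 point per library, slightly offset by genotype, and lines through the means of 2 libraries. Calcoco1, Nbr1, Wdr45, Map1lc3b and Tecpr1 are highest at 18 h in each genotype, the means of Snap29 and Uvrag are lowest at 6 h, and Atg14 in #B-20 stays between 16.3 and 20.3 CPM.

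The responses of the 3 genotypes share no libraries, so they could be set side by side. At 18 h against 0 h, 11 of 44 members rose in all 3 genotypes, which are Atg13, Pik3r4, Uvrag, Wdr45, Atg2a, Atg9a, Map1lc3b, Gabarap, Nbr1, Calcoco1 and Tecpr1, and none fell in all 3. Of all genes tested, 8.09% rose and 9.2% fell in all 3. Each of the 6 steps is represented among the 11, initiation by Atg13 alone and nucleation by Pik3r4 and Uvrag. Both nucleation genes were lost from this list without replicate 1 of untreated #B-20 cells. The promoters of all 11 were in the RefSeq table and none held CACGTG, beside 8.09% of all genes with a promoter there. So few genes cannot be set apart from that share. With any single library left out the number was 8 to 11, and Atg13, Calcoco1, Gabarap, Map1lc3b, Nbr1, Tecpr1 and Wdr45 were kept under every alternative tried. No member was called in opposite directions in 2 genotypes, and 21 members were called in none. Across the 44 members the log2 fold changes correlated with Pearson's r = 0.908 between parental cells and #A-59, 0.889 between parental cells and #B-20, and 0.848 between the clones. These are descriptions over genes, which share the untreated libraries of each genotype and are not independent. At 6 h the same values were 0.482, 0.771 and 0.724.

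**Figure D3:**
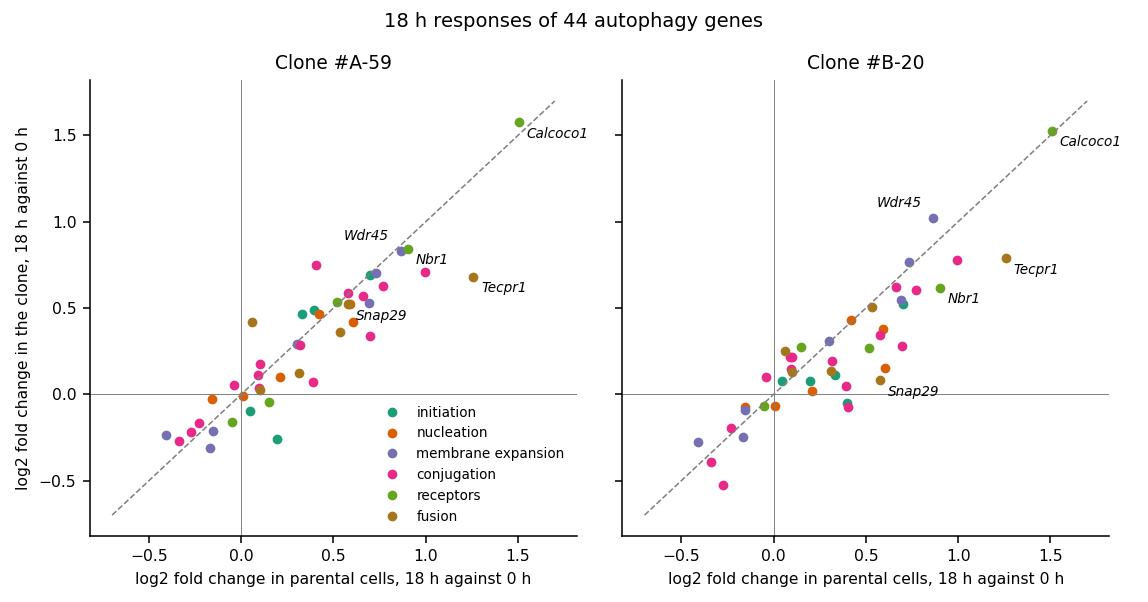
Each point is 1 of 44 autophagy genes, coloured by step, with its log2 fold change at 18 h against 0 h in parental cells (horizontal) and in #A-59 or #B-20 (vertical), and the dashed line marks equal responses. Calcoco1 lies near the line in both panels (1.51 in parental cells, 1.58 and 1.53 in the clones), and Tecpr1 lies below it (1.26 against 0.68 and 0.79).

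Against 6 h, the 18 h levels were higher for 20 members and lower for 3 in parental cells, higher for 15 and lower for 1 in #A-59, and higher for 13 and lower for 2 in #B-20. Of all genes tested, 19.4%, 14.9% and 11.5% were higher and 18.9%, 17% and 11.1% lower. In all 3 genotypes 11 members rose over this interval, beside 7.61% of all genes, with Rubcn and Snap29 in place of Pik3r4 and Atg9a. In parental cells Calcoco1 rose by 1.15, Snap29 by 1.14 and Tecpr1 by 1.05, all 3 of them DEGs, and in #B-20 Calcoco1 was the 1 DEG (1.38). In #A-59 Calcoco1 rose by 0.994, just under the limit, and passed it with a stricter filter on counts (1.01) and the GC correction (1.09). Tecpr1 in parental cells was no longer a DEG without a filter or under the GC correction, and its value was 0.96 without replicate 2 at 6 h. Of all genes, 13.5% (parental), 9.02% (#A-59) and 4.45% (#B-20) were DEGs. Vmp1, a scramblase of the endoplasmic reticulum, fell by 0.51 in parental cells, from 52.3 and 48.2 CPM to 36.4 and 34.2 CPM. In #B-20 it fell by 0.46, which was not called without replicate 1 at 18 h (-0.44). Single libraries moved these counts. The 23 calls in parental cells became 14 without either 6 h library and 13 without replicate 2 at 18 h. The 16 in #A-59 became 9 and 10 without replicate 1 or 2 at 18 h, and the 15 in #B-20 became 9 without replicate 1 at 18 h or either library at 6 h.

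Between genotypes none of the 44 tested members was a DEG at any time, where 4.78%, 7.91% and 4.92% of all genes were DEGs at 0, 6 and 18 h in #A-59 and 5.16%, 6.73% and 6.21% in #B-20. Snap29 in #A-59 at 6 h (0.97) was close to the limit and passed it under the GC correction (1.03). Its value was also above 1 without replicate 1 of the clone (1.03) or parental replicate 2 (1.04). Wipi1, which did not pass the filter, had 0 and 1 counts in parental cells and 23 and 9 in #B-20 at 18 h, and without a filter on counts this was called as a DEG. Over both clones and the 3 times, the 44 members gave 264 values from -0.87 to 0.97, of which 38 from 14 members had an adjusted p under 0.01. In #A-59 against parental cells, 5 members were higher and 1 lower at 0 h (5.09% of all genes higher and 4.47% lower), 9 were higher and none lower at 6 h (11.4% and 11.3%), and 4 were higher and none lower at 18 h (4.75% and 5.68%). In #B-20, 4 were higher and 2 lower at 0 h (4.03% and 6.66%), 4 higher and 2 lower at 6 h (6.23% and 8%), and 2 higher and 5 lower at 18 h (5.7% and 8.55%). The median log2 difference of the members was 0.13, 0.14 and 0.06 in #A-59 and -0.004, 0.02 and -0.07 in #B-20. The counts also changed when single libraries were left out. This leaves 1 library in a group, so that a lost call need not mean that it rested on that library. In #A-59 the 6 calls at 0 h became 2 without either parental library and 3 without replicate 1 of the clone, and the 9 at 6 h became 14 without replicate 2 of the clone. In #B-20 the 6 calls at 0 h became 2 without parental replicate 2 and 3 without either library of the clone, and the 7 at 18 h became 2 without either parental library. Log2 differences of #B-20 from parental cells also followed the GC content of the genes, with Spearman's rho of -0.344 at 0 h and -0.271 at 6 h over 15201 genes, and those of #A-59 did at 6 h with 0.196.

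The comparisons of both clones use the same parental libraries, so their values are set side by side and are not independent. Snap29 was higher than in parental cells by 0.55, 0.97 and 0.50 at 0, 6 and 18 h in #A-59 (adjusted p = 0.00012, 9.51e-08 and 0.000378). In #B-20 its differences were 0.51, 0.68 and 0.01 (adjusted p = 0.000284, 9.52e-06 and 0.928). At 0 and 6 h every library of both clones lay above the parental ones, while at 18 h #B-20 and parental libraries overlapped. Uvrag was higher by 0.64, 0.41 and 0.57 in #A-59 and had 0.46, 0.45 and 0.25 in #B-20, the last with an adjusted p of 0.0152. Optn differed by 0.40, 0.90 and 0.29 in #A-59 and by 0.41, 0.77 and 0.39 in #B-20, where the value in #A-59 at 18 h was not called (adjusted p = 0.0111). The 0 h call of Optn in #A-59 was lost without either parental library or replicate 1 of the clone (0.39 to 0.42), that in #B-20 without replicate 2 of either group (0.38 to 0.43), and the 18 h call in #B-20 without either parental library (0.37 to 0.42). Atg16l2, a paralog of Atg16l1, was higher at all 3 times in #B-20 (0.42, 0.54 and 0.55) and at 6 h in #A-59 (0.47). Its call at 0 h was lost without any of the 4 libraries (0.37 to 0.47), and that in #A-59 without replicate 1 of the parental (0.43) or the clone's libraries (0.34).

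Other differences were called in no more than 1 clone at any time, and the clones were not tested against each other. In #A-59, Pik3r4 was higher by 0.44, 0.71 and 0.48 at 0, 6 and 18 h, Rubcn by 0.66 at 6 h and 0.59 at 18 h, Gabarap by 0.37 at 0 h and 0.52 at 6 h, and Wipi2 and Map1lc3b by 0.41 and 0.42 at 6 h. The 6 h calls of Wipi2 and Map1lc3b and the 0 h calls of Gabarap and Pik3r4, and the 18 h call of Pik3r4, were each lost without any of 3 single libraries. Over the 4 libraries left out, the values were 0.30 to 0.51 for Wipi2, 0.39 to 0.44 for Map1lc3b, 0.27 to 0.48 for Gabarap, and 0.35 to 0.53 at 0 h and 0.44 to 0.54 at 18 h for Pik3r4. In #B-20, Calcoco1 was lower than in parental cells, with log2 differences of -0.66 (SE 0.16, adjusted p = 0.007) at 0 h, -0.87 (SE 0.16, adjusted p = 0.000472) at 6 h and -0.64 (SE 0.15, adjusted p = 0.0038) at 18 h. Under a correction for GC content the first and last of these were -0.42 and -0.56 and were not called. Single libraries mattered too, since without parental replicate 2 the 0 h value was -0.38, without #B-20 replicate 1 it was -0.47, and without #B-20 replicate 1 at 6 h the value there was -0.77, none of them called. At 18 h the call was lost without either parental library (-0.68 and -0.59) or #B-20 replicate 2 (-0.49).

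Tecpr1 was lower in #B-20 at 18 h, with a log2 difference of -0.71 (SE 0.12, adjusted p = 0.000158), a call that held without any single library (-0.75 to -0.66). Sqstm1 was lower in #B-20, with -0.51 (SE 0.09, adjusted p = 0.00035) at 6 h and -0.35 (SE 0.09, adjusted p = 0.00975) at 0 h, of which the latter was lost under the GC correction (-0.18) and without any of the 4 libraries compared (-0.42 to -0.30). The 18 h calls of Map1lc3b (-0.36) and Atg13 (-0.34) in #B-20 were kept under the GC correction. They were lost without any of the 4 libraries compared, with values of -0.44 to -0.27 and -0.39 to -0.28. Ulk2 was lower at 0 h in #A-59 (-0.47, lost without any of the 4 libraries, -0.50 to -0.43) and at 18 h in #B-20 (-0.51, lost without 3 of the 4, -0.56 to -0.45). The other 30 members were called in no comparison with parental cells.

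**Figure D4:**
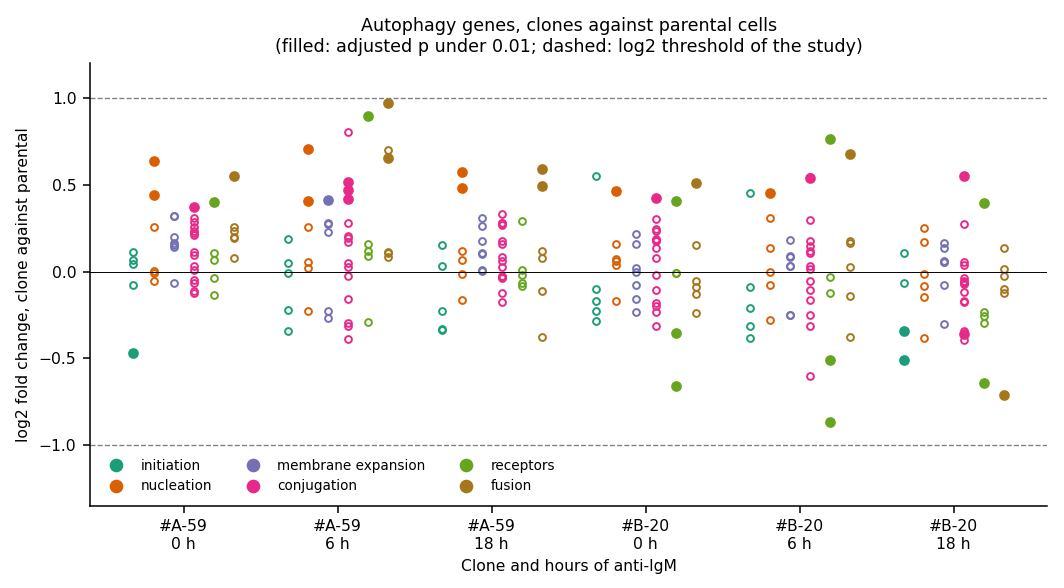
Each circle is the log2 difference of 1 of 44 autophagy genes between a clone and parental cells at 0, 6 or 18 h, coloured by step. The 38 filled circles have an adjusted p under 0.01, and no circle passes the dashed lines at 1 and -1, the largest being Snap29 in #A-59 at 6 h (0.97).

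Whether a clone responded differently to anti-IgM was tested as the difference of the responses (interaction). For the 44 members, edgeR called none in any of the 4 tests, in which 0.646% (#A-59, 6 h), 0.0392% (#A-59, 18 h), 0.183% (#B-20, 6 h) and 0.222% (#B-20, 18 h) of all genes were called. At an unadjusted p under 0.05 there were 7, 3, 1 and 4 members, and DESeq2 called 1, 0, 0 and 0. The 176 differences ranged from -0.58 to 0.57 with a median SE of 0.14, and over all genes they followed GC content with a rho of 0.235 in #A-59 at 6 h and 0.286 in #B-20 at 18 h. The lowest adjusted p was that of Optn in #A-59 at 6 h, whose fall in parental cells (-0.68) stood against -0.18 in the clone, a difference of 0.50 (SE 0.11, adjusted p = 0.0177). DESeq2 called this difference, as did edgeR with the GC correction (0.49). In #B-20 the difference for Optn was 0.36 (SE 0.11, adjusted p = 0.194). Snap29 differed by 0.42 (SE 0.12, adjusted p = 0.0925) in #A-59 at 6 h and by -0.50 (SE 0.12, adjusted p = 0.0701) in #B-20 at 18 h. For Tecpr1 at 18 h the values were -0.58 (SE 0.17, adjusted p = 0.298) for #A-59 and -0.47 (SE 0.17, adjusted p = 0.227) for #B-20, with no call. For Calcoco1 at 18 h the differences were 0.07 (SE 0.21, adjusted p = 0.995) and 0.02 (SE 0.22, adjusted p = 0.981).

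Around the core machinery, 43 further genes of the pathway were examined, comprising upstream control of the kinase complex, receptors for single organelles, and the tethers of lysosomal fusion. Of the 42 tested, 11 rose and 5 fell at 18 h in parental cells, 9 rose and 4 fell in #A-59, and 8 rose and 2 fell in #B-20. Beside these, 16.4% of all genes rose and 16.2% fell in parental cells, 14.7% and 17.1% did in #A-59, and 11.4% in either direction did in #B-20. At 6 h, Tsc1, Trp53inp2, Vps11 and Retreg1 rose in parental cells, and in #A-59 Ddit4 and Vps11 rose and Nrbf2 and Nufip1 fell, where 7.34% and 6.14% of all genes were called. In #B-20 neither edgeR nor DESeq2 called any at 6 h, with 5 at an unadjusted p under 0.05 by edgeR. DEGs in parental cells at 18 h, beside 10.3% of all genes, were the genes of stress-induced inhibitors of mTORC1 Sesn3 (1.80) and Ddit4 (1.26), the p53-inducible Trp53inp1 (1.86) and its paralog Trp53inp2 (1.04), the adaptor Plekhm1 (1.33), which links Rab7, LC3 and the HOPS tether, and the reticulophagy receptor Retreg1 (1.03). Nufip1, a receptor for ribosomes, fell by 1.06 (SE 0.10, adjusted p = 8.65e-08). In #A-59 the same genes had 1.64 (Sesn3), 0.80 (Ddit4), 1.64 (Trp53inp1), 0.83 (Trp53inp2), 1.38 (Plekhm1), 1.09 (Retreg1) and -0.75 (Nufip1). In #B-20 they had 1.36 (Sesn3), 1.06 (Ddit4), 1.19 (Trp53inp1), 0.98 (Plekhm1), 1.07 (Retreg1) and -0.76 (Nufip1), whereas Trp53inp2 had 0.04 (adjusted p = 0.896) and was not called. A larger fall was that of Wdfy3, an adaptor for autophagy of protein aggregates, in #A-59 at 18 h, with -3.11 (SE 0.44, adjusted p = 1.50e-05), which had -1.47 (SE 0.80, adjusted p = 0.204) in parental cells and -1.48 (SE 0.42, adjusted p = 0.0113) in #B-20. It was weakly expressed, at 1.49 ± 0.197 CPM (SD, n = 2) in untreated and 0.169 ± 0.0168 CPM in 18 h #A-59 cells. Mtor itself, the kinase that restrains initiation, fell by 0.46 (SE 0.11, adjusted p = 0.00225) in parental cells, and its activator Rheb fell by 0.50 (SE 0.12, adjusted p = 0.00283). In the clones Rheb fell by 0.63 in #A-59 and fell by 0.47 in #B-20, while Mtor had -0.32 and -0.35 and was not called (adjusted p = 0.0248 and 0.0202). Retreg1 was the 1 further gene with a called interaction, with a log2 fold change at 6 h of 0.76 in parental cells against -0.31 in #A-59, a difference of -1.07 (SE 0.17, adjusted p = 0.00291). Mtor, Rheb and Wdfy3, and the further genes named at 6 h, were chosen after their values were seen.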

How the data were processed

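RNA sequencing data of 18 libraries of WEHI-231 cells and the clones #A-59 and #B-20 were used, grouped by their labels. The authors deposited 1 table of raw read counts per library, by Ensembl gene and without normalization. The authors prepared non-stranded mRNA libraries and sequenced them single-end, and the submitters' notes name bcl2fastq 2.20.0.422, STAR 2.5, featureCounts 1.5.0-p1 and GRCm38. Options of the counting are not given in the sources used here. The files hold 0 entries that name no gene. Totals of 11223588 to 29655262 counts (median 19846544) set the precision of each value.

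The 46 genes, their assignment to steps and the list of 43 further genes were chosen with earlier results of these data known. Symbols were matched by Ensembl identifier through GENCODE vM39, which names 93.2% of the identifiers, holding 99.6% of the counts. Counts were filtered by filterByExpr, scaled by TMM and fitted with edgeR 4.0.16 (glmQLFit with robust dispersion, glmQLFTest) in R 4.3.3, with 1 mean for each of the 9 groups over all 18 libraries. P-values were adjusted per comparison over 15318 genes by the Benjamini-Hochberg method. Values in every library are given for members that were a DEG in any of the 15 comparisons, were called in an interaction, or were called alike in #A-59 and #B-20 at all 3 times (no member met either of the last conditions), and for the 2 called members of each step with the largest change in parental cells at 18 h against 0 h. Of the further genes, DEGs in parental cells at 18 h are named. Optn, Sqstm1 and other members were named after their values were seen. Tfeb is given as the targeted gene. Alternatives were DESeq2 1.42.0 as test or for size factors, no filter or a stricter one (10 counts or more in all libraries), a fit on the compared libraries alone, the replicate number as a block, a loess correction (span 0.5) for GC content, known for 99.2% of tested genes, and each library left out. The scripts were tested on simulated counts with known changes. Promoters and coordinates are from RefSeq on GRCm38.p6, and exon overlap from GENCODE vM39.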

Additional observations from a re-analysis of the deposited data

How the results depend on the processing

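Of 145 calls of single members in the 15 comparisons, 75 were kept under every alternative and 70 were lost under at least 1, and none changed direction. Under the alternatives other than leaving out a library, the number of members called changed by more than 1.5 times as follows. With only the libraries compared, parental cells at 6 h had 8 (2 before), #A-59 at 6 h 0 (1 before), #A-59 at 18 h against 6 h 5 (16 before), #A-59 against parental cells 4 at 6 h (9 before) and 9 at 18 h (4 before), and #B-20 against parental cells at 6 h 11 (6 before). The GC correction gave 4 in parental cells at 6 h, 2 in #B-20 at 6 h (0 before), 7 in #A-59 against parental cells at 18 h, 10 in #B-20 against parental cells at 6 h, and 1 (Optn) for the 6 h interaction of #A-59 (0 before). DESeq2 gave 3 (#A-59) and 2 (#B-20) at 6 h and 1 (Optn) for that interaction, and no filter gave 2 (#A-59) and 1 (#B-20) at 6 h. The correlation of same-numbered deviations ranged from -0.0196 to 0.305 over 36 pairs of groups (median 0.074), with 13 above 0.1 and 0 under -0.1. Since not every pair exceeded 0.1, the numbers were not taken to pair the samples, although most of the correlations were above 0. This criterion cannot exclude that libraries of the same number belong together. With the replicate block the count was 2 (#A-59) and 1 (#B-20) at 6 h. The replicate block with the GC correction gave, at 6 h, 5 (parental), 3 (#A-59) and 2 (#B-20), 15 and 8 in #A-59 against parental cells at 6 and 18 h, 11 and 11 in #B-20 against parental cells at 6 and 18 h (7 before at 18 h), 2 (Optn and Snap29) for the 6 h interaction of #A-59 and 1 (Snap29) for the 18 h interaction of #B-20 (0 before). The values of Snap29 there were 0.46 (adjusted p = 0.00541) and -0.47 (adjusted p = 0.00696).

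When single libraries were left out, the number called ranged from 2 to 2 in parental cells at 6 h and 14 to 17 at 18 h, 0 to 6 and 12 to 15 in #A-59, 0 to 0 and 8 to 14 in #B-20, 13 to 16, 9 to 14 and 9 to 14 at 18 h against 6 h in the same order, 2 to 4, 6 to 14 and 3 to 4 in #A-59 against parental cells, 2 to 4, 5 to 6 and 2 to 5 in #B-20 against parental cells, 0 to 0 in the interactions, and 8 to 11 for the members that rose in all 3 genotypes. This last count, whose alternatives were chosen after seeing the data, was 11 to 13 otherwise. A group left with 1 library was assumed to vary like the others. Calls lost in this way can reflect the smaller group alone as well as the library left out. DEG calls also moved. Wdr45 in #B-20 at 18 h lost it under the GC correction, and without replicate 1 at 0 h or 18 h its value was under the limit. Snap29 in #A-59 against parental cells at 6 h gained it under the GC correction (1.03). Its value also passed the limit without replicate 1 of the clone (1.03) or parental replicate 2 (1.04). Map1lc3a in parental cells at 18 h gained it with the stricter filter (1.02). Wipi1 in #B-20 against parental cells at 18 h gained it without a filter (3.996, a fitted value over 0 and 1 counts) and without replicate 2 of #B-20 (4.41). With 2 libraries per group, the median SE of an interaction was 0.14, which limits the differences between responses that could be called.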
